A study of Mus musculus with 28 samples.

Results

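The members described here are the mitochondrial carriers of the Slc25 family, taken as every gene whose mouse symbol starts with Slc25a. The GENCODE annotation of GRCm38 holds 48 such symbols, and 39 of them had a row among the 13519 genes counted in bulk RNA-seq of mouse colon organoids. The 9 members without a row, among them Slc25a2, Slc25a18, Slc25a21, Slc25a31 and the pseudogene Slc25a5-ps, were not analysed here. The organoids were grown from colon epithelium of C57BL/6N mice that carried conditional alleles and a tamoxifen-inducible Cre recombinase under the Villin promoter, which is active in epithelial cells of the gut. Each genotype was homozygous for the floxed Apc allele. AC organoids were labelled VillinCreERT2::APCflox/flox, PAC organoids VillinCreERT2::Trp53LSL-R172H/+::APCflox/flox, BAC organoids VillinCreERT2::BraffloxV600E/+::APCflox/flox, and BPAC organoids VillinCreERT2::BraffloxV600E/+::Trp53LSL-R172H/+::APCflox/flox. Cultures received 4-hydroxytamoxifen (4-HT) at 3.5 µM for 24 h or ethanol (EtOH), and RNA was taken 3 days later. No organoid without the floxed Apc alleles and none without the Cre transgene was analysed here, so recombination and 4-HT itself cannot be told apart. There were 28 samples of 14 cultures, an EtOH and a 4-HT sample of each. AC had 1 donor mouse and the other genotypes 2 each, with 2 cultures per donor. Cultures of 1 donor are not separate animals, and p values measure the spread between these cultures.

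Most SLC25 proteins sit in the inner mitochondrial membrane and carry small molecules between the cytosol and the matrix. Each is built from repeats of one membrane-spanning module, and most exchange a substrate on one side for another on the other side, such as ADP for ATP, citrate for malate, or acylcarnitine for carnitine. The colon epithelium is a tissue in which differentiated cells oxidise short-chain fatty acids, and carriers are part of how its mitochondria are supplied with fuel, phosphate, nucleotides and cofactors. Transcript levels, as measured here, do not report carrier protein or transport.

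Each library held between 20577276 and 40068718 counts. All 10 epithelial markers were counted, while 7 of 10 fibroblast, immune and endothelial markers, among them Col1a1, Ptprc and Kdr, had no row, and the other 3 summed to 5.34 to 9.43 CPM (counts scaled to equal library size) with EtOH and 6.51 to 8.74 with 4-HT. The summed level of 10 markers of differentiated colonocytes lay between 19992 and 30406 CPM with EtOH, between 7959 and 13987 with 4-HT in AC and PAC, and between 3486 and 8820 with 4-HT in BAC and BPAC. The summed level of 10 proliferation markers went the other way, from 852 to 1206 CPM with EtOH, to 1413 to 1745 in AC and PAC and to 1968 to 2462 in BAC and BPAC. The share of counts from 13 genes of the mitochondrial genome was 1.19% to 6.43% with EtOH, 1.08% to 2.47% with 4-HT in AC and PAC, and 0.535% to 0.958% with 4-HT in BAC and BPAC. In the 4-HT samples of PAC cultures 1 and 2 (the first duplicate of the 2 PAC donors), Xist stood at 25.2 and 22 CPM and Y-linked genes at 55.0 and 53.5 CPM, although the EtOH samples of each donor had one or the other, so these cultures were not clearly separate donors. Counts over the whole Apc gene do not isolate the floxed part and were higher with 4-HT in each genotype (log2 difference 0.67 to 0.92), which does not check recombination.

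Slc25a5, the ADP/ATP exchanger of many tissues, led the family. Levels between genes are compared as CPM per kb of exon. With EtOH, Slc25a5 (chrX:36795651-36798807, plus strand) had a mean of 1090.0 CPM per kb, with a range of 794 to 1373 over 14 samples, well above any other member. Averaged over all 28 samples its level of 962 CPM per kb was at percentile 99.8 of all genes counted. Reads from its near-identical processed copies could not be separated, and its level is uncertain in that respect. Slc25a39, a carrier needed for glutathione import, followed at 194 CPM per kb with EtOH (174 to 219), and its range overlapped that of the citrate carrier Slc25a1, whose mean was 151 CPM per kb (123 to 200.4). The next ranks were held by the dicarboxylate carrier Slc25a10, the ATP-Mg/phosphate carrier Slc25a24 and the phosphate carrier Slc25a3 at 119, 118 and 113 CPM per kb with EtOH, and their ranges overlapped each other. At the low end, Slc25a30, Slc25a53 and Slc25a45 averaged 0.43, 0.23 and 0.12 CPM per kb over all samples, and Slc25a45 had 0 counts in 1 sample, which allows up to 3 counts there. Ranked by the mean over all 28 samples, and set against CPM without division by length, the phosphate carrier Slc25a3 moved from rank 4 to rank 2 and Slc25a1 from rank 3 to rank 6, while Slc25a5 was first on both scales.

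**Figure D1:**
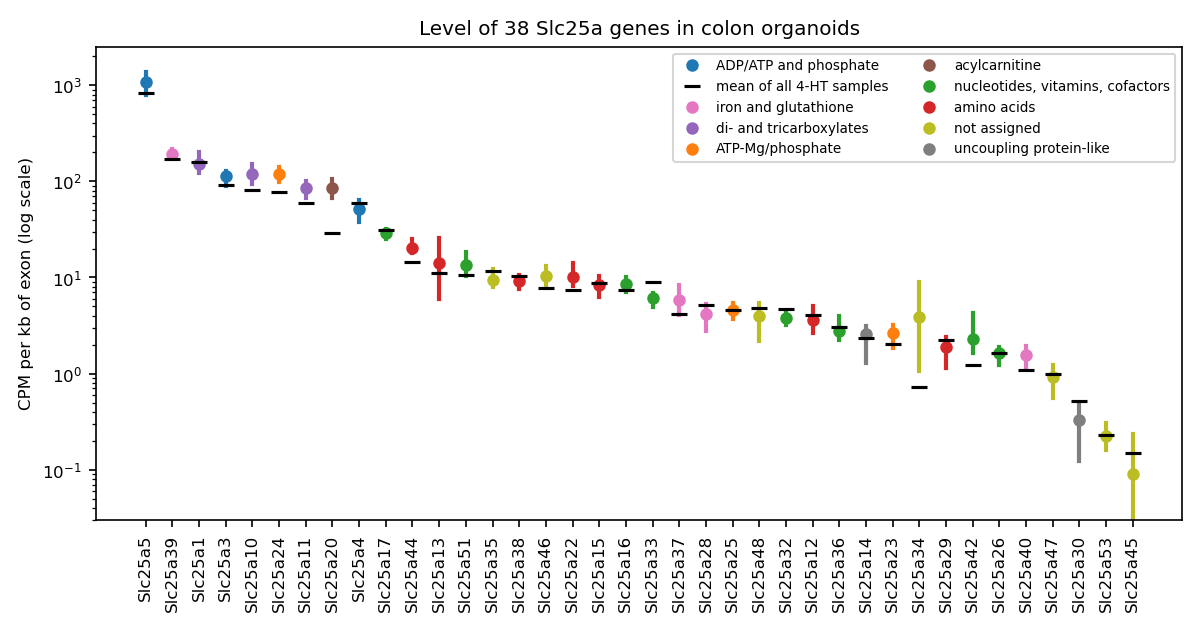
Level of 38 of the 39 counted Slc25a genes in CPM per kb of exon, on a log axis that starts at 0.03. Points are means and bars the range of 14 EtOH samples, coloured by substrate class, and black dashes are means of 14 samples with 4-HT, with Slc25a5 far above the rest and the dash of Slc25a20 below its EtOH range. The lower end of the bar of Slc25a45 is 0 and lies off the axis.

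The summed level of the family was lower with 4-HT in 14 of 14 cultures. It ran from 4635 to 6615 CPM with EtOH and from 3693 to 4737 CPM with 4-HT, and the log2 change per culture had a median of -0.35 and ran from -0.53 to -0.12. Slc25a5 alone gave 26.3% to 35.1% of this sum, and without it the sum was still lower in 14 of 14 cultures. This fall depended in size on the scaling: with library size alone the sum was lower in 13 of 14 cultures, higher in PAC culture 3 (0.12), and the median log2 change was -0.13.

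Gene by gene, the fall was carried by a part of the family. With the edgeR quasi-likelihood test and an adjusted p under 0.01, 4-HT changed 1 of 39 members in AC, and that member fell, against 3.00% of all genes that rose and 4.25% that fell. In PAC, 1 member rose and 8 fell, against 11.2% and 12.2% of all genes. BAC had 4 members that rose and 12 that fell, against 20.3% and 21.5% of all genes. In BPAC the numbers were again 4 and 12, against 22% and 23%. The median log2 change over the 39 members was -0.04, -0.07, -0.23 and -0.04 in AC, PAC, BAC and BPAC, beside medians of 0.01, -0.03, -0.04 and -0.04 over all genes. Across the genotypes 21 of 39 members passed the test at least once, against 52% of all genes, and 0 passed it in both directions, against 0.0740%. Slc25a20 was the 1 member that fell in all 4, as 3.85% of all genes did. These counts across the genotypes were close to those over all genes. Within PAC, BAC and BPAC a smaller share of members than of all genes rose and a larger share fell, a comparison that was not tested.

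These splits depended on the scaling. TMM factors were 0.885 to 0.970 with EtOH and 1.04 to 1.10 with 4-HT. With library size alone the median log2 change of all genes became 0.23, 0.20, 0.13 and 0.18 in AC, PAC, BAC and BPAC, and the members that rose and fell numbered 4 and 2 in PAC (25.1% and 5.45% of all genes), 8 and 5 in BAC (28.7% and 15.3%), and 10 and 7 in BPAC (32.0% and 15.1%). Under this scaling the falls of Slc25a20 held in all 4 genotypes, those of Slc25a34 in PAC, BAC and BPAC and those of Slc25a42 and Slc25a11 in BAC and BPAC, as did the rises of Slc25a33 in PAC, BAC and BPAC and of Slc25a32 and Slc25a35 in BAC and BPAC. The falls of Slc25a24, Slc25a39 and Slc25a3 passed in no genotype under it, nor did that of Slc25a5, and Slc25a10 and Slc25a44 kept theirs in BPAC alone. Rises that passed with library size alone, and not with TMM, included those of Slc25a1 in BAC (0.47), Slc25a17 in BAC and BPAC (0.27 and 0.37), and Slc25a4 and Slc25a12 in BPAC (0.61 and 0.54). With each culture as a block, which compares EtOH and 4-HT within the same culture, 5 members passed in AC (16.4% of all genes) and 15 in PAC (34.9%), and each member called without the block in AC, PAC and BAC was called with it too. Without PAC cultures 1 and 2, no member passed in PAC, where 9 had, and 0.355% of all genes did. With the counts summed by labelled donor, 8, 14 and 18 members passed in PAC, BAC and BPAC, against 20.1%, 39.5% and 43.1% of all genes. In PAC these sums were not clearly separate donors, because cultures 1 and 2 with 4-HT held both Xist and Y-linked reads. The calls lost were those of Slc25a33 and Slc25a11 in PAC, Slc25a5 in BAC, and Slc25a3, Slc25a39 and Slc25a23 in BAC and BPAC (adjusted p of 0.01 to 0.0391), besides 1 more in BPAC. AC then has 1 sample per arm, which is assumed to vary like the other groups, and is left out of these numbers.

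**Figure D2:**
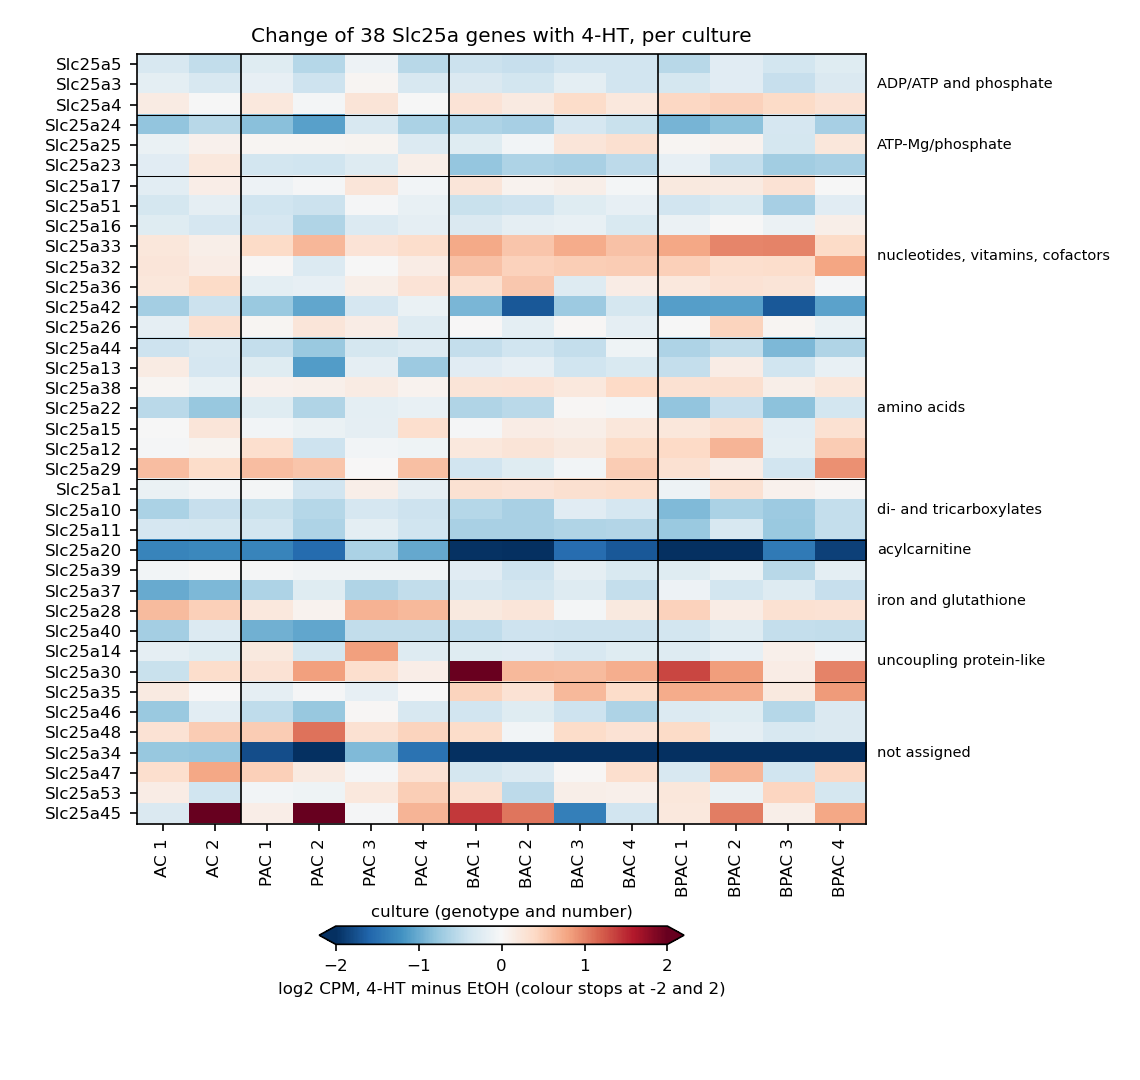
Change of 38 of the 39 Slc25a genes between the 4-HT and the EtOH sample of the same culture, in log2 CPM, for 14 cultures in columns and members in rows grouped by substrate class. Red is higher and blue lower with 4-HT, the colour scale stops at -2 and 2, and the rows of Slc25a20 and Slc25a34 are blue in all 14 cultures.

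Slc25a20 (chr9:108662088-108684641, plus strand), the acylcarnitine carrier, exchanges acylcarnitine for carnitine and lets long-chain fatty acids enter the matrix for oxidation. AC organoids held 433 and 353 CPM with EtOH and 174 and 144 CPM with 4-HT. In PAC the EtOH samples held 427, 498, 326 and 425 CPM and the 4-HT samples 170.1, 172.2, 209 and 209 CPM. The EtOH and 4-HT samples did not overlap in either genotype. BAC organoids held 419, 468, 366 and 402 CPM with EtOH and 107, 115, 128 and 125 CPM with 4-HT. BPAC organoids held 515, 384, 434 and 397 CPM with EtOH and 98.1, 69.7, 163 and 109 CPM with 4-HT. Slc25a20 was lower with 4-HT in all 14 cultures, and the 8 cultures with the Braf allele ended below those of AC and PAC except for BPAC culture 3, which ended within their range. The log2 fold changes were -1.31 ± 0.25 (SE, n = 2 cultures, AC), -1.14 ± 0.17 (PAC), -1.80 ± 0.18 (BAC) and -1.98 ± 0.18 (BPAC, n = 4 cultures for each of these 3), with edgeR adjusted p of 0.0012, 3.7e-05, 1.2e-08 and 2.4e-09. In BPAC this was 3.93-fold lower. Without PAC cultures 1 and 2, the change in PAC was -0.84 with an adjusted p of 0.0495, and leaving out AC culture 1 or 2 left 1 sample per arm in AC, assumed to vary like the other groups, with values of -1.29 and -1.32 that did not pass (adjusted p of 0.0658 and 0.048).

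Other genes of the carnitine shuttle were lower with 4-HT as well. Cpt1a and Cpt2, which make acylcarnitine from acyl-CoA and reverse this in the matrix, Crat, which does so for short acyl groups, and the plasma membrane carnitine transporter Slc22a5 make up a list of 4. Of these, 2 passed as falls in AC and 4 in each of PAC, BAC and BPAC, against 4.25%, 12.2%, 21.5% and 23% of all genes. Cpt1a changed by -0.73, -0.81, -0.97 and -1.16 on the log2 scale in AC, PAC, BAC and BPAC, and its value in AC did not pass (adjusted p = 0.012). The fall of Slc25a20 was larger than that of each of these 4 genes in each genotype, as a comparison of values that was not tested. In AC, PAC, BAC and BPAC 6, 7, 9 and 10 of 10 markers of differentiated colonocytes fell, and 6, 8, 9 and 10 of 10 proliferation markers rose. Of all genes 3.00%, 11.2%, 20.3% and 22% rose in these genotypes. Of 10 goblet cell markers 1, 3, 3 and 3 rose and 1, 1, 4 and 4 fell, 2, 4, 6 and 6 of 10 epithelial markers fell, and 0, 0, 1 and 1 of the 3 counted fibroblast, immune and endothelial markers fell. Their part in the changes of the carriers was not tested, nor was that of the mitochondrial share. In bulk samples, fewer cells of a type and less RNA per cell cannot be told apart.

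**Figure D3:**
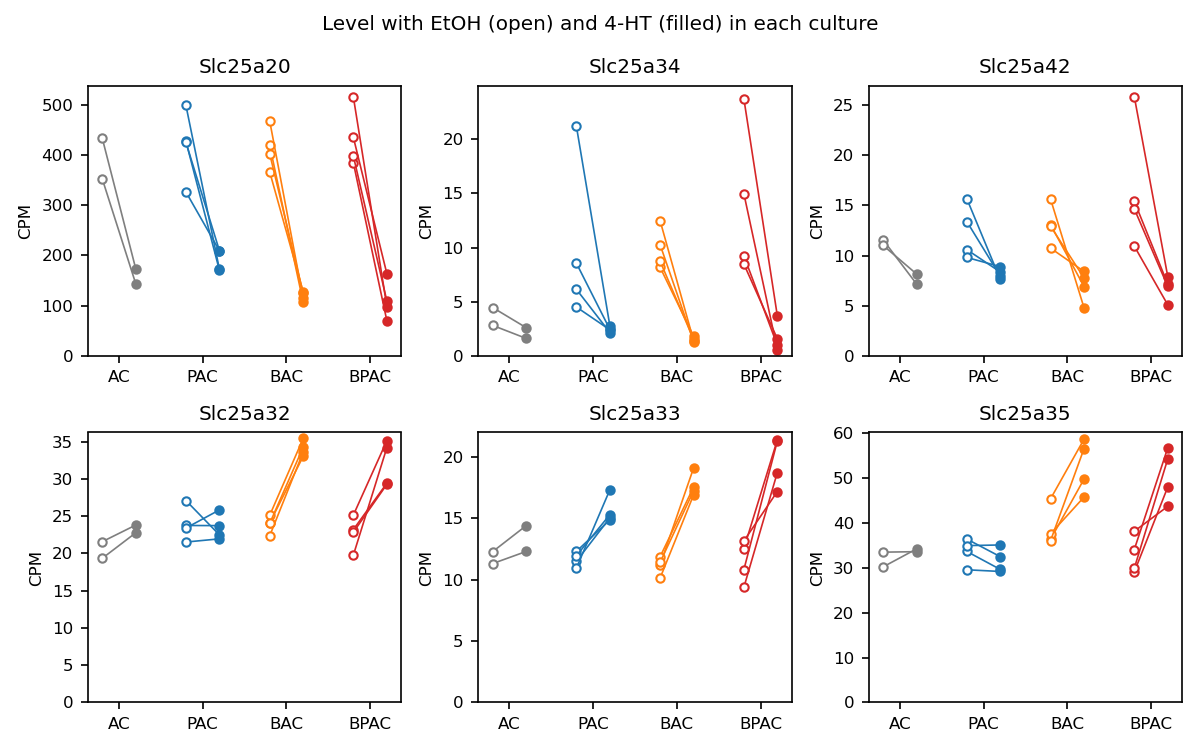
CPM of 6 members in the EtOH sample (open) and the 4-HT sample (filled) of each of 14 cultures, joined by a line, by genotype, with axes from 0. Slc25a20, Slc25a34 and Slc25a42 were lower with 4-HT in all 14 cultures, and Slc25a32 and Slc25a35 were higher with 4-HT in all 8 cultures of BAC and BPAC.

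The class of carriers of nucleotides, vitamins and cofactors had 9 counted members, and 0, 1, 2 and 3 of them rose and 0, 1, 1 and 2 fell in AC, PAC, BAC and BPAC, against 3.00%, 11.2%, 20.3% and 22% of all genes that rose and 4.25%, 12.2%, 21.5% and 23% that fell. Slc25a32 (chr15:39091231-39112716, minus strand) carries folate into mitochondria. With EtOH it lay between 19.3 and 27.1 CPM over the 14 samples. With 4-HT it stood at 22.8 and 23.8 CPM in AC and at 22, 22.5, 23.7 and 25.8 CPM in PAC. In BAC it reached 33.6, 33, 35.4 and 34.2 CPM with 4-HT, and in BPAC 35.1, 29.4, 29.3 and 34.2 CPM. Every 4-HT sample with the Braf allele was above every EtOH sample and above every 4-HT sample of AC and PAC. Without the Braf allele the log2 fold change of Slc25a32 was 0.19 ± 0.13 (SE, AC) and -0.03 ± 0.09 (PAC), with edgeR adjusted p of 0.34 and 0.84. With it the values were 0.51 ± 0.09 (BAC) and 0.49 ± 0.09 (BPAC), with adjusted p of 3.5e-05 and 4.8e-05.

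Among the mitochondrial folate enzymes, Shmt2, which moves a carbon unit from serine to folate, changed by 0.58, 0.62, 1.40 and 1.47 on the log2 scale in AC, PAC, BAC and BPAC and passed in each. Mthfd2, the next enzyme of the route, changed by 0.06, 0.20, 1.03 and 1.36 and passed in BAC and BPAC. The list of 4 was completed by the formate-releasing Mthfd1l and by Aldh1l2, which oxidises formyl folate. Of these 4, 1, 1, 3 and 4 rose in AC, PAC, BAC and BPAC, against 3.00%, 11.2%, 20.3% and 22% of all genes, and 0 fell, against 4.25%, 12.2%, 21.5% and 23%. Aldh1l2 differed most between genotypes, at -1.16 in AC, where it did not pass (adjusted p = 0.029), and 1.01 in BPAC.

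**Figure D4:**
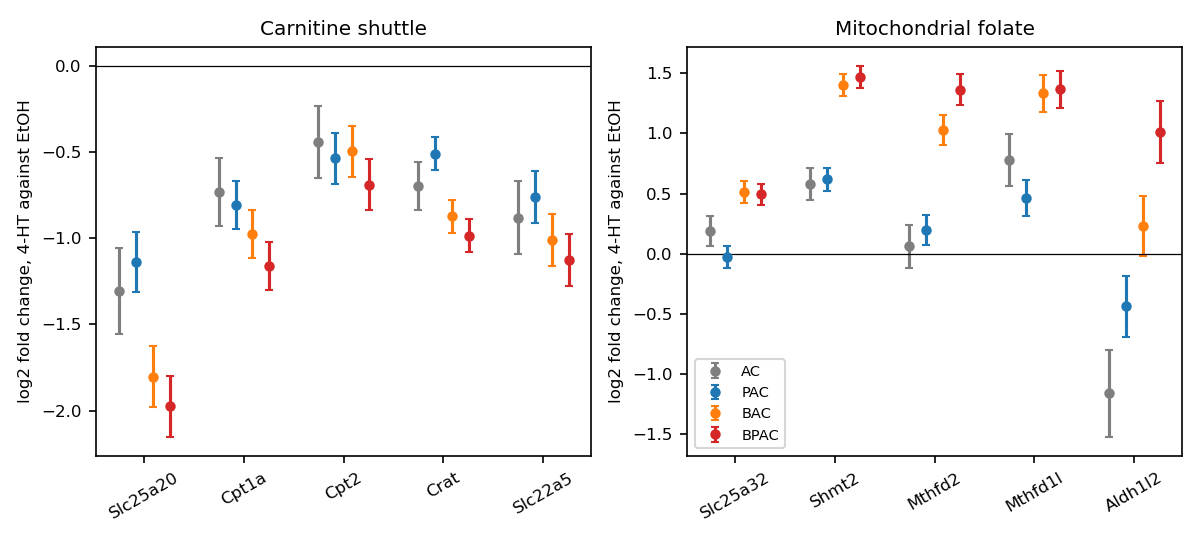
Log2 fold change of 4-HT against EtOH with its standard error for Slc25a20 and 4 genes of the carnitine shuttle (left panel) and for Slc25a32 and 4 mitochondrial folate enzymes (right panel), by genotype. Every point of the left panel is below 0, with Slc25a20 lowest in each genotype, and in the right panel BAC and BPAC lie above AC and PAC for each gene.

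Slc25a33 (chr4:149744036-149774277, minus strand) imports pyrimidine nucleotides for mitochondrial DNA and RNA. With EtOH it lay between 9.37 and 13.1 CPM. AC cultures held 14.4 and 12.3 CPM with 4-HT, and PAC cultures 15, 17.3, 14.9 and 15.3 CPM. BAC cultures reached 19.1, 17.5, 16.9 and 17.2 CPM and BPAC cultures 21.4, 21.3, 18.7 and 17.2 CPM. It was higher with 4-HT in 14 of 14 cultures, and in PAC, BAC and BPAC the EtOH and 4-HT samples did not overlap. Its log2 fold changes were 0.18 ± 0.15, 0.42 ± 0.10, 0.67 ± 0.10 and 0.78 ± 0.10 (SE) in the order AC, PAC, BAC, BPAC, with edgeR adjusted p of 0.45, 0.0029, 9.5e-06 and 9e-07. The call in PAC was lost without PAC culture 1, 2 or 4 (0.43, 0.34 and 0.44). Slc25a17, a peroxisomal carrier of CoA, FAD and NAD and the most abundant member of the class per kb, differed by 0.16 or less in size in each genotype and did not pass with TMM scaling, while with library size alone it passed in BAC and BPAC (0.27 and 0.37).

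Within the same class, Slc25a42, which imports CoA into mitochondria, went down. With EtOH its 14 samples ran from 9.81 to 25.8 CPM and with 4-HT from 4.79 to 8.90 CPM, without overlap. On the log2 scale Slc25a42 fell by 0.91 in BAC and by 1.31 in BPAC (adjusted p of 0.00078 and 1.2e-05), without BAC culture 2 the value in BAC was -0.67 and did not pass, and its values of -0.56 in AC and -0.59 in PAC did not pass (adjusted p of 0.21 and 0.03), though the latter did without BPAC culture 3 (adjusted p = 0.00936). The NAD carrier Slc25a51 fell in BPAC by 0.41, and Slc25a16 fell in PAC by 0.36. Slc25a26, which imports S-adenosylmethionine, and Slc25a36, which carries pyrimidine nucleotides, gave no call.

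The promoters of members were searched for CACGTG, the E-box bound by MYC, MAX and related factors, factors known for their action on growth genes. The motif is its own reverse complement, so one search covers both strands. RefSeq windows (GRCm38.p6, from 250 bases before to 50 bases after the start) were found for 31 of the 39 members, and 6 of these (19.4%) held the motif, against 2187 of 27025 genes (8.09%). The wider set also holds genes without a row among the counts, while all 31 members have one, so the shares come from unlike sets. The 6 sites are shown with 10 bases on each side, read 5′ to 3′ on the strand of the gene, with the motif in capitals.
Slc25a33 (chr4:149774260-149774285, minus strand): cggcctccgcCACGTGacggccgcgc
Slc25a13 (chr6:6217283-6217308, minus strand): cagtctgagtCACGTGtcctggcccc
Slc25a15 (chr8:22398339-22398364, minus strand): ccctgccgcaCACGTGccgcggctcc
Slc25a36 (chr9:97111213-97111238, minus strand): cctgggcgatCACGTGaaagaggcgt
Slc25a1 (chr16:17928443-17928468, minus strand): gctccagacgCACGTGtctctaaact
Slc25a14 (chrX:48623384-48623409, plus strand): cacctccctcCACGTGacgccccacc
Of these 6 genes, Slc25a33 passed the test of the 4-HT change, and the other 5 did not pass it without the block in any genotype under TMM scaling with all samples. Slc25a1 passed in BAC with library size alone (0.47). Slc25a32 and Slc25a35 are among the 8 members for which the table had no window. The window of Slc25a20 did not hold the motif, and a stretch of 100 bases of it that ends before the annotated start of the gene is shown for comparison, since this gene fell in all 4 genotypes.
Slc25a20 (chr9:108661986-108662085, plus strand): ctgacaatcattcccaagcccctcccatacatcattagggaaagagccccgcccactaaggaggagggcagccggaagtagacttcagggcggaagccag
A match describes letters in a window and says nothing of binding.

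Of the 3 counted carriers of ADP, ATP and phosphate, the phosphate carrier Slc25a3 fell in BAC and BPAC, Slc25a5 fell in BAC, and 0 rose. Slc25a5 was lower with 4-HT in 14 of 14 cultures. Its levels in BAC were 2058, 2146, 2007 and 1891 CPM with EtOH and 1535, 1563, 1537 and 1445 CPM with 4-HT. The log2 changes of Slc25a5 were -0.40, -0.38, -0.41 and -0.36 in AC, PAC, BAC and BPAC, with adjusted p of 0.12, 0.017, 0.0061 and 0.014. With culture as a block it passed in PAC and BPAC as well (adjusted p of 0.002 and 0.0017), and without the block leaving out any 1 BAC culture ended its call (-0.42 to -0.40). Slc25a3 changed by -0.31 in BAC and -0.34 in BPAC, and lost the first call without BAC culture 1, 2 or 4 and the second without BPAC culture 3 (values from -0.31 to -0.28). Slc25a4, the paralog of Slc25a5 and the form typical of heart and muscle, was chosen for mention after its values were seen. In BPAC it stood at 141, 124, 115 and 118 CPM with EtOH and at 188, 171, 149 and 145 CPM with 4-HT. It was higher with 4-HT in all 8 cultures of BAC and BPAC, by 0.25 and 0.39 on the log2 scale, and did not pass (adjusted p of 0.13 and 0.018). With culture as a block it passed in both (adjusted p of 0.0031 and 7e-05), and in BPAC it also passed with DESeq2, library size alone, summed donors, duplicate 1 alone, or without PAC culture 2, PAC culture 3 or PAC cultures 1 and 2 (adjusted p of 0.000721 to 0.00974).

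Among the carriers of di- and tricarboxylates, Slc25a10, which exchanges malate or succinate for phosphate, fell in PAC, BAC and BPAC by 0.45, 0.46 and 0.69 on the log2 scale. In BPAC its EtOH samples held 527, 422, 435 and 365 CPM and its 4-HT samples 287, 273, 262 and 263 CPM. It was lower in 14 of 14 cultures, and its value of -0.56 in AC passed with culture as a block (adjusted p = 0.0022) and not without (adjusted p = 0.041). Its call in PAC, at an adjusted p of 0.0097, was lost without any 1 PAC culture (-0.48 to -0.40), without any 1 BAC culture, without BPAC culture 2 or 3 and with limma-voom (adjusted p of 0.0101 to 0.0131 for these), and its call in BAC without BAC culture 1, 2 or 4 (-0.42, -0.39 and -0.50). Slc25a11, the malate/2-oxoglutarate carrier of the malate-aspartate shuttle, fell in the same 3 genotypes by 0.41, 0.62 and 0.58, and in PAC not without PAC culture 2 (-0.33). It shares 189 exon bases with Rnf167, whose log2 changes were -0.67 in BAC and -1.05 in BPAC, and reads there could not be assigned. The citrate carrier Slc25a1, which supplies citrate for lipid synthesis, changed by 0.31 in BAC (adjusted p = 0.023) and by -0.10, -0.14 and 0.08 elsewhere, and passed in BAC with culture as a block (adjusted p = 0.0026) and without PAC culture 2 (adjusted p = 0.00897). Among 6 genes of the malate-aspartate shuttle and of citrate use, 0 passed in AC, Mdh1 fell in PAC, and in BAC and BPAC Got2 and Acly rose while Mdh1 fell. Of all genes 3.00%, 11.2%, 20.3% and 22% rose and 4.25%, 12.2%, 21.5% and 23% fell in AC, PAC, BAC and BPAC. Acly, which splits citrate in the cytosol, rose by 0.62 in BAC and 0.71 in BPAC.

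Of 7 counted carriers of amino acids, 0, 1, 1 and 2 fell in AC, PAC, BAC and BPAC, against 4.25%, 12.2%, 21.5% and 23% of all genes, and 0 rose. Slc25a44, which carries branched-chain amino acids and is the most abundant of the class per kb, accounted for 3 of these 4 calls. Its levels in BPAC were 81.7, 69.7, 85.5 and 80.5 CPM with EtOH and 53.4, 49.4, 45.9 and 52.8 CPM with 4-HT, without overlap, a log2 change of -0.66 ± 0.09 (SE, edgeR adjusted p = 6.4e-07). The changes of Slc25a44 in PAC and BAC were -0.47 and -0.36, and in BAC it did not pass without BAC culture 1 or 3 (-0.32 each). The glutamate carrier Slc25a22 fell in BPAC by 0.63. The aspartate/glutamate carriers Slc25a12 and Slc25a13, the ornithine carrier Slc25a15, Slc25a29 for basic amino acids and the glycine carrier Slc25a38 gave no call without the block under TMM scaling, while Slc25a12 passed in BPAC with library size alone (0.54, adjusted p = 0.0035). Around ornithine and arginine, 0 of 6 genes passed in AC, 2 rose and 1 fell in PAC, 2 rose and 2 fell in BAC, and 2 rose and 3 fell in BPAC. Over all genes the shares that rose in these genotypes were 3.00%, 11.2%, 20.3% and 22%, beside the falls given above. Odc1, the first enzyme of polyamine synthesis, and Ass1, which makes argininosuccinate, rose in PAC, BAC and BPAC, by 0.80 and 1.54 in BPAC, and Otc, which makes citrulline from ornithine, fell by 3.39 there.

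Among the calcium-regulated carriers, Slc25a24, which exchanges ATP-Mg for phosphate under control of calcium, fell in PAC, BAC and BPAC by 0.70, 0.51 and 0.66, and was lower in 14 of 14 cultures. Its -0.67 in AC passed with culture as a block (adjusted p = 0.0045) and not without (adjusted p = 0.042). Its call was lost in PAC without PAC culture 1 or 2 (-0.66 and -0.58), in BAC without any 1 BAC culture (-0.58 to -0.46), AC culture 1 or 2 or BPAC culture 1 or 4 (adjusted p up to 0.0476), and in BPAC without BPAC culture 1 (-0.58). Its 4-HT samples in BPAC held 225, 189, 342 and 284 CPM, against 427, 335, 432 and 448 CPM with EtOH, so that culture 3 with 4-HT lay above the lowest EtOH sample. Its paralog Slc25a23 fell in BAC and BPAC by 0.64 and 0.51, in BPAC not without BPAC culture 3 or 4 (-0.45 and -0.46), and Slc25a25 gave no call. Of the 4 carriers of iron and glutathione, Slc25a39 fell in BAC and BPAC, by 0.28 in each, but not without BAC culture 2 or 4 (-0.24 and -0.28) or BPAC culture 3 (-0.19). The other glutathione carrier, Slc25a40, fell in PAC by 0.73 (not without PAC culture 1, 2 or 4, at -0.80 to -0.64), and with culture as a block also in BAC and BPAC. Slc25a37, the mitoferrin that imports iron for heme and iron-sulfur clusters, was named after its values were seen. It was lower with 4-HT in each genotype, at -0.95, -0.51, -0.37 and -0.31, and with each culture as its own sample passed in 0 genotypes without the block (adjusted p of 0.028, 0.055, 0.14 and 0.2) and in 4 with it (adjusted p of 5.4e-05, 0.00012, 0.00085 and 0.0035). With summed donors it passed in PAC (-0.53, adjusted p = 0.00917), where the sums were not clearly separate donors. Its value in AC, which then has 1 sample per arm, was -0.99. Its EtOH level differed with the culture, from 24.5 to 50.6 CPM. Alas1, the first enzyme of heme synthesis, fell in BAC and BPAC by 0.79 and 0.89.

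Slc25a14, the more abundant of the 2 uncoupling protein-like members per kb, did not pass in any genotype, at -0.26 to 0.04. Slc25a30 rose in BAC by 0.95 ± 0.28 (SE, edgeR adjusted p = 0.0067), with 14 to 46 counts in the EtOH samples and 62 to 95 in those with 4-HT, and its 0.85 in BPAC did not pass (adjusted p = 0.011), while with culture as a block it did (adjusted p = 0.0086). Among the 7 counted members with no substrate assigned here, Slc25a34 (chr4:141618824-141623821, minus strand), an orphan carrier, had the largest changes of the family in PAC, BAC and BPAC. AC cultures held 4.47 and 2.82 CPM with EtOH and 2.61 and 1.62 CPM with 4-HT. PAC cultures went from 8.56, 21.2, 4.51 and 6.15 CPM to 2.45, 2.77, 2.41 and 2.16 CPM. BAC cultures went from 12.5, 10.3, 8.17 and 8.73 CPM to 1.41, 1.32, 1.82 and 1.53 CPM. BPAC cultures went from 15, 9.25, 23.7 and 8.49 CPM to 0.58, 0.975, 3.71 and 1.58 CPM. The EtOH and 4-HT samples did not overlap in PAC, BAC or BPAC, it was lower in 14 of 14 cultures, and its EtOH level varied most between cultures in PAC and BPAC. The log2 fold changes of Slc25a34 were -0.78 ± 0.64, -2.05 ± 0.45, -2.71 ± 0.47 and -3.07 ± 0.47 (SE) for AC, PAC, BAC and BPAC, with edgeR adjusted p of 0.45, 0.0011, 3.2e-05 and 5.4e-06. Without PAC cultures 1 and 2 the change in PAC was -1.23 and did not pass, nor did it without culture 2 alone (-1.46).

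Slc25a35 (chr11:68968131-68974365, plus strand), another orphan carrier, went up. In AC it had 30.2 and 33.5 CPM with EtOH and 34.2 and 33.6 CPM with 4-HT, and in PAC the 4-HT samples held 29.7, 29.2, 32.5 and 35.1 CPM against 33.7, 29.6, 36.4 and 35.0 CPM. In BAC it rose from 36.4, 37.6, 36.1 and 45.4 CPM to 49.8, 45.8, 56.6 and 58.7 CPM, and in BPAC from 34.1, 29.1, 38.2 and 29.9 CPM to 56.8, 48.0, 43.7 and 54.3 CPM. The groups did not overlap in BAC or BPAC, where the log2 changes were 0.44 ± 0.11 and 0.63 ± 0.11 (SE, edgeR adjusted p of 0.0013 and 2.7e-05), and without BAC culture 3 the first was 0.37 and did not pass. Of its 3677 exon bases, 1151 overlap those of Rangrf, which is not analysed here, and the strandedness of the counts is not given in the sources used here, so reads of both genes could not be told apart. Slc25a46 fell in BAC by 0.42, and Slc25a45, Slc25a47, Slc25a48 and Slc25a53 gave no call without the block.

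The difference between genotypes was then tested itself. The contrast of the 4-HT change with against without the Braf allele (BAC and BPAC less AC and PAC) passed for 2 of 39 members, both upward, against 3.05% of all genes upward and 3.55% downward. These were Slc25a32, with a difference of 0.42 ± 0.10 (SE, edgeR adjusted p = 0.0055), and Slc25a35, with 0.53 ± 0.12 (adjusted p = 0.0041). Within the first duplicate of each donor alone the differences were 0.42 and 0.52 and within the second alone 0.43 and 0.55, and neither passed in 1 duplicate alone. Without PAC cultures 1 and 2 they were 0.37 and 0.53 and 0 of 39 members passed (adjusted p of 0.0218 and 0.011 for these genes). With summed donors they were 0.46 and 0.57 and did not pass (adjusted p of 0.0141 and 0.013). The call of Slc25a32 was lost without AC culture 1 or 2, PAC culture 2, any 1 BAC culture or BPAC culture 4, and that of Slc25a35 without AC culture 1 or 2, PAC culture 1, BAC culture 3 or BPAC culture 4 (adjusted p up to 0.046). With culture as a block 5 members passed, against 14.0% of all genes, and Slc25a20 (-0.70, adjusted p = 0.0069), Slc25a34 (-1.62, adjusted p = 0.0035) and Slc25a37 (0.39, adjusted p = 0.0042) joined these 2. Slc25a33 differed by 0.42 ± 0.12 and did not pass in edgeR (adjusted p = 0.016), but passed in DESeq2 (adjusted p = 0.00368) and without BPAC culture 4 (0.49, adjusted p = 0.006). Slc25a20, at -0.67 and an adjusted p of 0.021 without the block, also passed in DESeq2 (adjusted p = 0.00864) and without BPAC culture 3 (-0.79, adjusted p = 0.00168). The 4 folate enzymes all passed upward in the same contrast, with a median of 0.95, as did Tomm70a.

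The Trp53 allele gave no such call. In the contrast of the 4-HT change with against without this allele (PAC and BPAC less AC and BAC), 0 of 39 members passed in edgeR, limma-voom or DESeq2 and 0 had an unadjusted p under 0.05, against 0.0148% of all genes called. With culture as a block 0 passed, and Slc25a37 (0.26) and Slc25a34 (-0.76) had an unadjusted edgeR p of 0.0094 and 0.047. The 95% interval of the difference ran from -0.38 to 0.38 for Slc25a20, from -0.31 to 0.08 for Slc25a32 and from -0.23 to 0.24 for Slc25a35, and differences within these intervals could not be told from 0 here. With EtOH, organoids with and without the Braf allele differed in 0 of 39 members in edgeR, against 0.0296% of all genes. At an unadjusted edgeR p under 0.05 there were 11 members, and in DESeq2 1 passed. The shares of all genes under these other rules are not given here. With 4-HT, 9 members were higher and 3 lower with the Braf allele, against 15.6% and 14.6% of all genes. The higher members were Slc25a1, Slc25a4, Slc25a12, Slc25a13, Slc25a16, Slc25a32, Slc25a33, Slc25a35 and Slc25a38, from 0.28 for Slc25a16 to 0.89 for Slc25a13 on the log2 scale. Part of these differences was there with EtOH: Slc25a13 differed by 0.82 ± 0.21 (SE) and Slc25a12 by 0.40 ± 0.12 with EtOH (adjusted p of 0.084 and 0.13), against 0.89 and 0.72 with 4-HT, and their 4-HT changes differed by 0.07 and 0.32 and did not pass (adjusted p of 0.91 and 0.23). With EtOH, Slc25a13 stood at 23.8 ± 1.51 CPM in AC (SD, n = 2 cultures of 1 donor), and at 52.2 ± 18.4, 59.7 ± 3.80 and 64.7 ± 27.5 CPM in PAC, BAC and BPAC (SD, n = 4 each), so that AC alone lay below the genotypes with the Braf allele and PAC overlapped them. The lower ones were Slc25a20 (-0.61), Slc25a23 (-0.58) and Slc25a48 (-0.61).

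Carriers enter the inner membrane by the TIM22 route, in which receptors of the outer membrane and small chaperones hand the protein to the TIM22 complex. Of 11 genes of this route, 0, 3, 6 and 7 rose in AC, PAC, BAC and BPAC, against 3.00%, 11.2%, 20.3% and 22% of all genes. In none of these genotypes did a gene of the list fall, against 4.25%, 12.2%, 21.5% and 23% of all genes. The medians of the list were 0.30, 0.24, 0.52 and 0.64. In BAC and BPAC the receptor Tomm70a, which recognises carrier precursors, rose by 0.75 and 0.79, the chaperones Timm9 and Timm10 rose by 0.72 and 0.71 in BPAC, and the channel subunit Timm22 changed by -0.15 to 0.09 and gave no call. Among 3 counted relatives of the carrier fold under other names, Mtch2 fell in PAC, BAC and BPAC, Mtch1 fell in BAC and BPAC, and Ucp2, an uncoupling protein, gave no call at -0.06 to 0.13. Of 13 other transporters of mitochondrial membranes, 1, 6, 6 and 6 fell in AC, PAC, BAC and BPAC, against 4.25%, 12.2%, 21.5% and 23% of all genes. In the same order 0, 0, 1 and 1 rose, against 3.00%, 11.2%, 20.3% and 22%. Mpc2, a subunit of the pyruvate carrier, fell in PAC, BAC and BPAC by 0.48, 0.89 and 0.69, the outer membrane channel Vdac3 fell in all 4 genotypes by 0.47 to 0.60, and the serine transporter Sfxn1 rose in BAC and BPAC by 0.28 and 0.34.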

How the data were processed

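Bulk RNA-seq libraries of 28 organoid samples were analysed. The deposited values were raw counts per gene, made by the authors from reads trimmed with Trimmomatic 0.39 and aligned with STAR 2.5.2b per the submitters' processing notes. The counter, its annotation and its strand setting are not given in the sources used here. The table held 13519 genes, none with a row sum under 116, and 13479 got a symbol. Library totals of 20577276 to 40068718 set the counting precision, and floors cover counting error only.

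Groups followed the labels. TMM scaling and the quasi-likelihood test of edgeR 4.0.16 (R 4.3.3) were fitted over all 8 groups, and p values were adjusted over all genes by Benjamini and Hochberg, with a threshold of 0.01. CPM use the scaled library sizes. The 4-HT and EtOH samples of one donor and duplicate number were taken as the same culture (1 BAC sample with 4-HT has no number in its label and was paired as duplicate 1, and the pairing of PAC cultures 1 and 2 is doubtful by their Xist and Y-linked counts), and their deviations from the group means correlated (r of 0.245 to 0.532 in 14 cultures), so culture was added as a block. Further alternatives were limma 3.58.1 (voom), DESeq2 1.42.0, other scalings, a mean of 5 CPM or more, summed donors, a threshold of 0.05, one genotype or duplicate alone and each culture left out.

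The members, classes and lists of genes were chosen with earlier results of these data known. Genes described by name are those called in the contrast of the Braf allele or in all 4 genotypes, those with the largest rises and falls in BPAC, and the most abundant of each class, and members outside this rule were named after their values were seen. On simulated data edgeR recovered, of 100 genes changed 4-fold, 98 in AC and 100 in each of PAC, BAC and BPAC, and of 100 genes changed 2-fold, 37, 85, 79 and 93. The changed genes were drawn from genes with higher counts, all genes had the same spread, and samples were drawn as independent. These rates can be too high for members with few counts or a wide spread, and for cultures that share a donor. Promoter sequences came from RefSeq (GRCm38.p6). Results of 1 member and of 1 list of genes are not reported here.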

Additional observations from a re-analysis of the deposited data

Results flagged for a closer look

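Slc25a42 fell by 1.7 on the log2 scale in BPAC culture 3, apart from the other 3 BPAC cultures, which changed by -1.1 to -1.07. Slc25a39 changed by -0.02 in PAC culture 1, beside -0.08 to -0.07 in the other 3 PAC cultures. Both were set apart because 1 culture of 4 lay far from the rest relative to the range of its group. In all, 69 groups were examined and 2 stood out, and chance alone marks about 1 in 20 groups.

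The 4-HT change of Slc25a32 was 0.42 higher, and that of Slc25a35 0.53 higher, on the log2 scale with the Braf allele than without it, and this difference between genotypes passed the edgeR test itself (adjusted p of 0.0055 and 0.0041). Both calls were lost with summed donors (adjusted p of 0.0141 and 0.013) and without PAC cultures 1 and 2 (adjusted p of 0.0218 and 0.011). The summed level of proliferation markers with 4-HT was also higher with the Braf allele, and its part in these differences was not tested.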

How the results depend on the processing

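No change of a named gene that passed under any setting reversed, but with library size alone the family sum rose in PAC culture 3 (0.12) and members that rose outnumbered those that fell in PAC, BAC and BPAC. Counts of members past the threshold moved as follows. The share of all genes called moved with the setting too, in PAC to 34.9% with culture as a block and 20.1% with summed donors. These counts alone therefore do not set the members apart from other genes. The 1 member in AC became 5 with culture as a block, 2 with DESeq2, with the filter at 5 CPM, with summed donors or with duplicate 1 alone, 0 with duplicate 2 alone, 6 at an adjusted p of 0.05, and 0 to 2 when each culture was left out. The 9 members in PAC became 15 with the block, 4 with this genotype alone, 0 with duplicate 2 alone or without PAC cultures 1 and 2, 16 at 0.05, and 2 to 11 when each culture was left out, lowest without PAC culture 2. The 16 in BAC became 3 with duplicate 2 alone and 8 to 18 with each culture left out, lowest without BAC culture 2. The 16 in BPAC became 8 with duplicate 2 alone and ranged from 14 to 18 with each culture left out. The 2 of the Braf contrast became 5 with the block or at 0.05, 4 with DESeq2, 0 with summed donors, either duplicate alone or without PAC cultures 1 and 2, and 0 to 3 with each culture left out. The 0 members that differed with EtOH became 1 with DESeq2. The 12 that differed with 4-HT became 3 with duplicate 2 alone and 6 to 13 with each culture left out, lowest without AC culture 2. Beyond the changes given here and beside the genes, the pairing by culture also added calls for Slc25a13, Slc25a28, Slc25a46 and Slc25a48 in PAC, Slc25a38 in BAC and BPAC, Slc25a51 in BAC and Slc25a22 in AC, removed 1 call in BPAC, and changed no other call in the 4-HT changes. The cause of these moves was not tested, and a single duplicate holds fewer samples. For the named genes, 1469 values under alternatives stayed on their side of the threshold, 155 lost it and 60 gained it.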
